A study of Mus musculus with 46 samples.

Results

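CCK basket cells of mouse frontal cortex are described here across all genes. Their 64 cells, of 584 single GABAergic neurons in the deposited table, were taken by their name in that table, and each was traced to 1 of 4 libraries of 16 cells. They came from layer 2+3 of 2 male mice of the strain Vip-Flp; CCK-Cre; Ai65, in which a red reporter needs both the Flp recombinase driven from Vip and the Cre recombinase driven from Cck. Libraries 1 and 2 came from animal 5 at postnatal day 39 and were run in lane 3, and libraries 3 and 4 came from animal 6 at postnatal day 40 and were run in lane 4, so animal, age and lane cannot be told apart. The other groups were 6 further types of labelled inhibitory neuron. Interneuron-selective cells (Vip-Flp; CR-Cre; Ai65) came from layer 2/3 of 2 female mice at day 32. PV basket cells (Pv-iresCre; Ai14) came from all layers of 4 mice of both sexes at days 58 to 83. Martinotti cells (Sst-Flp; CR-Cre; Ai65) were from layer 2/3 of females at day 35, and long-projecting cells (Sst-Flp; Nos1-Cre; Ai65) from males at days 28 and 29. Chandelier cells of upper and deep layers (Nkx2.1-CreER with an Ai14 reporter, labelled Ai15 in 1 upper-layer library) were from females at days 40 to 58 and males at day 34, and the inducible driver was switched on with tamoxifen. No group received an experimental treatment. All 4 CCK basket libraries ran on a flow cell that held no other type, so flow cell and type cannot be told apart in any comparison below.

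CCK basket cells surround the cell bodies and proximal dendrites of pyramidal neurons with inhibitory endings. Those endings carry the cannabinoid receptor CB1, through which endocannabinoids made by the postsynaptic neuron suppress GABA release, and they are known for release that outlasts the spike. The cells derive from the caudal ganglionic eminence of the embryo, respond to serotonin through the 5-HT3 receptor, and form the counterpart of the fast-spiking parvalbumin (PV) basket cells, which derive from the medial eminence.

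The genes of 3 peptides on which the description turns, Vip (vasoactive intestinal peptide), Cck (cholecystokinin) and Tac2 (neurokinin B), lie on chromosomes 10, 9 and 10. The 250 bases before each gene's start are shown because peptide genes are classically controlled from this window, in which cyclic AMP acts through a response element whose core is TGACG. Sequences are from RefSeq on GRCm38.p6, 5′ to 3′ in the direction of the gene, and capitals mark TGACG or its reverse complement CGTCA.
Vip, chr10:5638968-5639217, + strand: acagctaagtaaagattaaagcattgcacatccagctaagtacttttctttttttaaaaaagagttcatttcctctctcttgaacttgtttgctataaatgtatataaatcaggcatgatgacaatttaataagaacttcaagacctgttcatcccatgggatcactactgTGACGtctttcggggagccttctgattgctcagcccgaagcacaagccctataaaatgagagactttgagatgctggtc
Cck, chr9:121495695-121495944, - strand: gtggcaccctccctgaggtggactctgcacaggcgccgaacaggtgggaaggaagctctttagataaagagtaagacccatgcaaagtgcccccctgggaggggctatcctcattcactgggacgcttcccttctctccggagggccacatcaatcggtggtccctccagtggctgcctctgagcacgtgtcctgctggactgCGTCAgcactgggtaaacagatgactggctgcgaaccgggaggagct
Tac2, chr10:127724228-127724477, + strand: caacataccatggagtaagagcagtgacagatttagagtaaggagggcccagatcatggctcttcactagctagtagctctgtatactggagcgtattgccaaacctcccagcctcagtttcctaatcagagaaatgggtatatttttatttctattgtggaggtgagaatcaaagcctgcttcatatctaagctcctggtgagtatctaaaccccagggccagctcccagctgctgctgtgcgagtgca
The Vip window holds 1 match, in the forward direction at base -79 from the gene's start, and the Cck window holds 1, as the reverse complement at base -47. The Tac2 window holds no match to these letters. Of 32851 windows of the same length, 17.8% hold a match on either strand.

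The 4 libraries held 3942461, 2434714, 2329357 and 2448654 counts, and single cells held 27954 to 577911 (median 155732). Values are given as CPM, counts per 1000000 of a library's summed cells, and a sum cannot tell fewer cells with a transcript from less of it per cell. All 16 cell barcodes recur in each of the 4 libraries. Within a library, counts of the cells differed by 1.04 to 1.07 times what sampling of counts alone gives (chi-square per degree of freedom). For pairs of libraries this ratio was 62 to 82.5. The ratio grows with the number of counts, and a library holds many more than a cell, so these ranges are not on the same scale. Since cells of a library differed by little more than sampling, single cells were not compared. The labelled animal, or a merged pair of PV basket animals, is the replicate in every comparison with another type (n = 2 for CCK basket cells). Upper chandelier libraries labelled animal 14 carry ages of both 40 and 58 days. They were summed as 1 replicate, which may therefore hold more than 1 mouse. Whether 2 libraries of an animal held separately collected cells is not stated, so the spread between libraries may be partly technical.

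The label was checked against its markers and those of other cells. Vip had levels of 3581, 4739, 3908 and 5118 CPM in libraries 1 to 4, and Cck had 1235, 1498, 1902 and 3247 CPM. Both genes drove the labelling, so their levels check the label. The 4 libraries carried Cnr1, the gene of CB1, at 2198, 2856, 2622 and 2908 CPM. Corticotropin-releasing hormone, Crh, stood at 4057, 3724, 3361 and 2905 CPM. The chemokine gene Cxcl14 had 1143, 1416, 657 and 1043 CPM, and the 5-HT3 receptor subunit gene Htr3a had 201, 470, 302 and 487 CPM. No library lacked any of the 6 markers, but none of the 6 passed against interneuron-selective cells, as described below. Genes listed for other interneurons were present too. In CCK basket cells the 9 calretinin interneuron-selective genes summed to 2043 CPM, against 4502 CPM in interneuron-selective cells. The 10 genes of Pvalb basket and chandelier cells summed to 3285 CPM, against 6545 CPM in PV basket cells. Of these 10 genes only 3 reached 100 CPM in CCK basket cells, and Pvalb itself was at or near 0. The sum of 8 neurogliaform genes was 1221 CPM, with 3 genes at 100 CPM or more, Kit and Npy among them. That of 10 Sst cell genes, which hold Npy again, was 651 CPM. Of genes that define other cells, Slc17a6, Tbr1, Emx1, Fezf2, Gfap, Sox10 and Kcnj8 had no count in any CCK basket library. The 11 genes of glutamatergic neurons summed to 157, 256, 387 and 313 CPM, most of it Camk2a, a kinase subunit gene of excitatory neurons, at 83.7, 218, 342 and 287 CPM. Camk2a was called higher than in the other types (edgeR adjusted p = 0.0221, and 0.458 without animal 6), and the part of other cells in the results was not tested. The summed level of 8 oligodendrocyte genes was 9.24 to 53.4 CPM, that of 8 microglial genes 3.7 to 68.2 CPM and that of 10 endothelial and pericyte genes 22.5 to 188 CPM. Library 3 had the highest astrocyte sum, 624 CPM over 9 genes against 157 to 270 CPM in the other libraries, and most of it was the glutamate transporter Slc1a2 at 475 CPM. Of 8 astrocyte genes tested, 2 were called higher than in the other types, Slc1a2 among them, beside 5.22% of all genes. Library 3 also had the highest sums of endothelial and of oligodendrocyte precursor genes, the latter at 68 CPM against 0.254 to 4.9 CPM.

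Compared with the mean of the other 6 types, CCK basket cells were higher in all 9 caudal eminence genes listed and in 4 of 11 serotonin receptor genes. They were also higher in 7 of 21 neuropeptide genes, among them Vip and Cck, which drove the labelling. Lower were 3 medial eminence genes and the genes of 2 AMPA receptor subunits. In edgeR's quasi-likelihood fit, after adjustment by the method of Benjamini and Hochberg, 6.3% of the 15533 genes tested passed an adjusted p of 0.05, 5.22% of them (811 genes) as higher and 1.08% (168 genes) as lower. The median log2 fold change over all genes was 0.04. The balance of directions moved with the method: DESeq2 called 977 genes higher and 648 lower. Against male types only, edgeR called 794 higher and 364 lower. The edgeR test averages logarithms over types, so it cannot judge as lower a gene without a count in CCK basket cells and in another type. The choice of types mattered for single genes. Against upper-layer types only, the adjusted p was 0.0748 for Chrm3, 0.63 for Chrna4, 0.13 for Grm7, 0.133 for Nrxn2, 0.0692 for Npas1, 0.123 for Wnt5a, 0.13 for Pthlh and 0.0695 for Tacr1. Against male types only it was 0.0801 for Gria2, 0.0666 for Grik4, 0.053 for Chrna5 and 0.196 for Pde4b. Adra2c, Hrh2, Htr2b and Grm3 missed the threshold in both. Unless said otherwise, p-values below are from the edgeR fit and a fold divides the CCK basket level in CPM by the average over the 6 types.

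Among neuropeptide genes, 7 of 21 tested (39 listed) were higher and 0 lower, with a median log2 fold change of 2.63. The 7 higher were Vip, Cck, Crh, Tac2, Pnoc, Pthlh and Edn3. The count of 0 lower is limited by the test, which cannot judge a gene without a count in CCK basket cells and in another type. Against PV basket cells alone, 4 of the 21 were higher and 3 lower, and against interneuron-selective cells none passed. Tac2 had 632, 1219, 1118 and 1606 CPM and 390 CPM on average in interneuron-selective cells, with no count in any of the other 5 types (adjusted p = 1.22e-05 in edgeR). Crh was 22.9-fold higher than in the other types (edgeR adjusted p = 0.000163). Interneuron-selective cells came next with 641 ± 593 CPM (SD, n = 2), and both CCK basket animals lay above every replicate of that type. Pnoc, which encodes the nociceptin precursor, had 318, 424, 201 and 323 CPM, 10.5-fold above the others (edgeR adjusted p = 0.00418). Vip was 8.72-fold and Cck 7.5-fold higher (edgeR adjusted p = 0.00126 and 0.000561), but both drove the labelling, so these values only check the label. Each of these 5 genes was present in all 4 libraries. Endothelin 3, Edn3, was uneven, at 46.2, 133, 0 and 95.2 CPM, while no other type averaged above 1.07 CPM (edgeR adjusted p = 0.000561).

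Several peptides of other interneurons were present without passing the test. Neuropeptide Y, Npy, had 265, 445, 273 and 242 CPM, below the means of 18772 CPM in long-projecting and 3700 CPM in Martinotti cells (edgeR adjusted p = 0.722). Penk, the enkephalin precursor, had 197, 182, 200 and 494 CPM (edgeR adjusted p = 0.0598). Somatostatin, Sst, had no count in the 64 cells, which allows up to 0.269 CPM, the level of 3 counts over the type. Of 15 genes of peptide processing and granins, 1 rose, which is near the 5.22% of all genes called higher. This was Cadps2, which primes dense-core vesicles, at 94, 399, 284 and 66.6 CPM, with a log2 fold change of 2.36 (SE 0.32, edgeR adjusted p = 0.000791). Its levels in libraries 2 and 3 were the highest, and the lowest library lay near the 82.8 CPM of upper chandelier cells. Pthlh, the parathyroid hormone-like peptide, had 64.2, 10.7, 20.6 and 121 CPM and passed in a test that averages logarithms: it was above the near absence in Martinotti and long-projecting cells but below the 579 CPM of upper chandelier cells and the 164 CPM of interneuron-selective cells. Without CCK basket animal 6 its edgeR adjusted p was 0.0839.

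**Figure D1:**
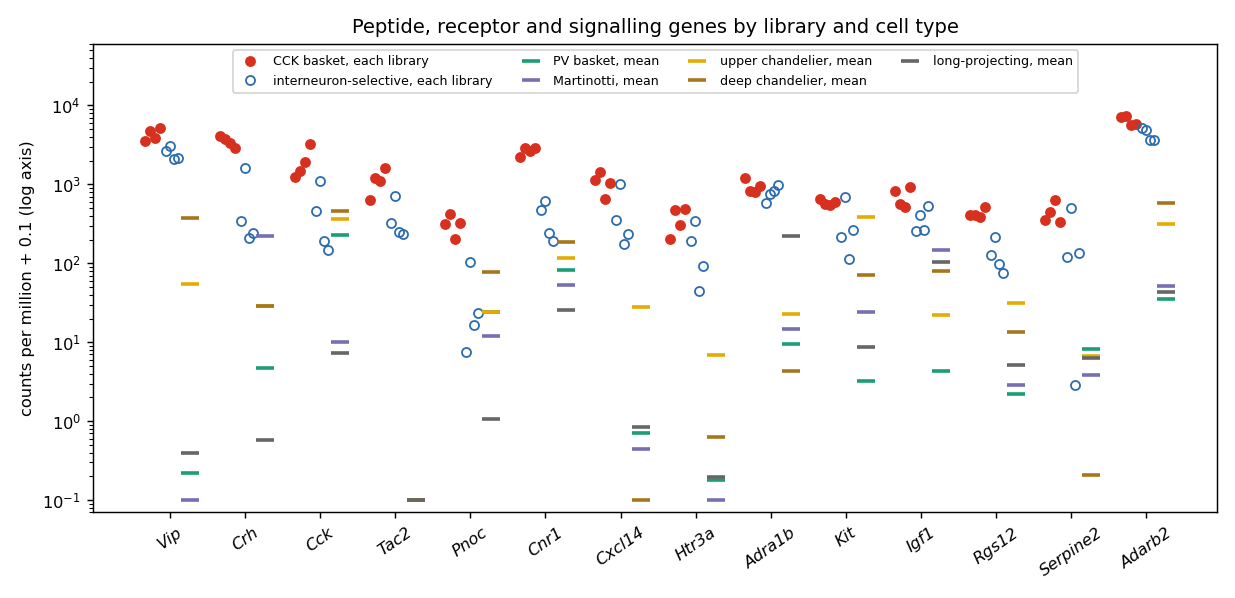
Levels of 14 genes as CPM plus 0.1 on a log axis: filled circles are the 4 CCK basket libraries, open circles the 4 interneuron-selective libraries, and bars the means of the other 5 types. Tac2 has no count in those 5 types, and Kit varies least among the CCK basket libraries.

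Of the endocannabinoid genes, Cnr1 alone rose among 11 tested, 18.3-fold above the other types, with a log2 fold change of 4.81 (SE 0.70, edgeR adjusted p = 0.0013). The CB1-interacting protein gene Cnrip1 had 59.4, 108, 90.6 and 102 CPM (edgeR adjusted p = 0.411), and Mgll, which breaks down the endocannabinoid 2-AG, had 110, 157, 251 and 269 CPM (edgeR adjusted p = 0.349). The median log2 fold change over the list was -0.08. Among serotonin receptors 4 of 11 tested rose, Htr3a, Htr2c, Htr4 and Htr2b. Htr3a was 11.8-fold higher (edgeR adjusted p = 6.79e-05), and next highest in interneuron-selective cells at 171 CPM. Htr2c had 116, 136, 178 and 164 CPM, with a log2 fold change of 2.79 (SE 0.43, edgeR adjusted p = 0.0018). Htr2c was even over the libraries, whereas Htr4 had 103, 23.8, 18.5 and 6.53 CPM and Htr2b had 0, 2.05, 22.3 and 0 CPM. Htr4 missed the threshold without animal 5 (edgeR adjusted p = 0.52), and Htr2b missed it in 8 of 16 fits that left out 1 replicate, with the highest adjusted p, 0.695, without animal 6.

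Of 12 tested receptors for noradrenaline, dopamine and histamine, 4 rose. None of the 12 passed against interneuron-selective cells, in which the listed genes summed to 967 CPM, against 1172 CPM in CCK basket cells. The alpha-1B adrenergic receptor gene Adra1b led those that rose, at 1216, 828, 808 and 954 CPM, with a log2 fold change of 4.83 (SE 0.60, edgeR adjusted p = 0.000489). The other 3, Adra2a, Adra2c and Hrh2, peaked at 77.6, 33.7 and 41.5 CPM in single libraries. They passed in 6, 5 and 4 of the 16 fits that left out 1 replicate, and the highest adjusted p was 0.957 for Adra2a without animal 6, 0.356 for Adra2c without animal 5 and 0.212 for Hrh2 without animal 6. Among 13 acetylcholine receptor genes tested 4 rose and 1 fell. The muscarinic M3 receptor gene Chrm3 had 652, 835, 401 and 383 CPM and a log2 fold change of 1.74 (SE 0.27, edgeR adjusted p = 0.00199), and Martinotti cells reached a similar 558 CPM. The nicotinic subunit genes Chrna3, Chrna4 and Chrna5 rose from low levels. Chrna4 had 35.3, 55.9, 66.1 and 41.7 CPM, below the 241 CPM of interneuron-selective cells. Chrna3 was carried by 1 library, at 5.33, 1.64, 73.8 and 4.9 CPM. Peptide receptor genes counted 6 higher and 1 lower of 30 tested. The neuropeptide Y receptor gene Npy1r had 50, 98.2, 44.6 and 58.8 CPM, with a log2 fold change of 3.12 (SE 0.49, edgeR adjusted p = 0.00203). Vipr1, a receptor for the peptide VIP itself, had 91.3, 31.6, 12.4 and 11.8 CPM, against at most 1.99 CPM on average in another type (edgeR adjusted p = 0.00161). Tacr1, the substance P receptor gene, was nearly absent at 0, 0, 0 and 2.45 CPM, and averaged 964 CPM in long-projecting cells (edgeR adjusted p = 0.021). Without CCK basket animal 5 the adjusted p was 0.0817 for Chrm3, 0.0797 for Vipr1, 0.0698 for Chrna4, 0.0543 for Chrna5 and 0.158 for Tacr1. Without animal 6 it was 0.133 for Chrna3, 0.102 for Chrna4 and 0.0698 for Tacr1.

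Glutamate receptor genes moved in both directions, with 3 of 18 ionotropic genes higher and 2 lower. The AMPA receptor subunit gene Gria1 had 466, 753, 679 and 346 CPM against a range of 525 to 4753 CPM over the other type means (log2 fold change -1.34, SE 0.28, edgeR adjusted p = 0.0101). Gria3 had 40.8, 28.8, 72.6 and 11.4 CPM and a log2 fold change of -2.11 (SE 0.37, edgeR adjusted p = 0.00411). Gria2, the subunit that makes AMPA receptors impermeable to calcium, had 642, 507, 357 and 440 CPM and a log2 fold change of 0.75 (SE 0.18, edgeR adjusted p = 0.0236). AMPA receptor genes therefore passed in both directions. Kainate subunit gene Grik4 split by animal, at 386, 352, 48.1 and 70.2 CPM. Of the metabotropic receptors, Grm7 and Grm8 rose and Grm3 fell among 7 tested. Grm7 had 842, 214, 700 and 461 CPM and a log2 fold change of 1.70 (SE 0.32, edgeR adjusted p = 0.00598). The calls of Gria2, Gria3, Grik4, Grm7 and Grm8 were lost without CCK basket animal 5 and not without animal 6, and those of Gria1 and Grm3 without either: without animal 5 the adjusted p was 0.0752 for Gria1, 0.0559 for Gria3, 0.388 for Gria2, 0.598 for Grik4, 0.0555 for Grm7, 0.196 for Grm8 and 0.183 for Grm3, and without animal 6 it was 0.112 for Gria1 and 0.191 for Grm3. Gria2 also missed the threshold without PV basket animals 9 and 10 (edgeR adjusted p = 0.0509). Among 16 GABA receptor genes, 1 rose, which is near the 5.22% of all genes called higher. It was the gamma-3 subunit gene Gabrg3, at 798, 711, 733 and 682 CPM (log2 fold change 0.98, SE 0.15, edgeR adjusted p = 0.00203).

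Synaptic adhesion genes counted 9 higher and 3 lower of 53 tested. None of the 53 passed against interneuron-selective cells, in which the listed genes summed to 19458 CPM, against 18068 CPM in CCK basket cells. Neurexins span the presynaptic membrane and bind postsynaptic partners. Nrxn3 had 3606, 5252, 2969 and 3738 CPM and a log2 fold change of 1.14 (SE 0.15, edgeR adjusted p = 0.000846). For Nrxn2 the log2 fold change was 0.96 (SE 0.18, edgeR adjusted p = 0.00487, and 0.144 without animal 5). Partners of neurexins moved in both directions. Cerebellin 2, Cbln2, which links neurexins to glutamate receptors of the delta family, had 965, 1237, 1220 and 1715 CPM against 2154 CPM in interneuron-selective cells and at most 66.4 CPM on average elsewhere (edgeR adjusted p = 0.00123). Neurexophilin 1, Nxph1, a secreted neurexin ligand, had 34, 15.6, 7.73 and 7.35 CPM against 380 to 839 CPM in the 5 types other than interneuron-selective cells (log2 fold change -3.94, SE 0.47, edgeR adjusted p = 0.000331). The contactin gene Cntn4 had 1258, 995, 767 and 1556 CPM and a log2 fold change of 2.23 (SE 0.33, edgeR adjusted p = 0.00142).

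Of 59 growth factor and cytokine genes tested, 12 were higher and 0 lower. Against interneuron-selective cells none of the 59 passed, and the listed genes summed to 4773 CPM there, against 5856 CPM in CCK basket cells. Insulin-like growth factor 1, Igf1, had 820, 562, 521 and 931 CPM, with a log2 fold change of 3.71 (SE 0.37, edgeR adjusted p = 7.2e-05). Cxcl14 was 13-fold higher (edgeR adjusted p = 6.79e-05). Wnt5a, a ligand of noncanonical Wnt signalling, had 221, 141, 139 and 135 CPM and a log2 fold change of 4.15 (SE 0.66, edgeR adjusted p = 0.00212). The 3 genes were present in every library. Interneuron-selective cells came next in the order of type means for Igf1 and Cxcl14 and stood above CCK basket cells for Wnt5a, at 201 against 164 CPM, with libraries that overlapped. Of 52 extracellular matrix genes tested, 5 rose and 0 fell. Here too none passed against interneuron-selective cells, with a sum of 2548 CPM there and 3438 CPM in CCK basket cells. Serpine2, an inhibitor of serine proteases, had 351, 446, 633 and 335 CPM and was 11.8-fold higher (edgeR adjusted p = 1.22e-05). Nov, a matrix-associated signalling protein, had 67, 220, 155 and 226 CPM and was 10.9-fold higher (edgeR adjusted p = 0.00039). Kit, the receptor for stem cell factor, was among the most even genes at 652, 561, 548 and 596 CPM, with a log2 fold change of 3.91 (SE 0.30, edgeR adjusted p = 1.22e-05). Kit did not pass against interneuron-selective cells either.

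**Figure D2:**
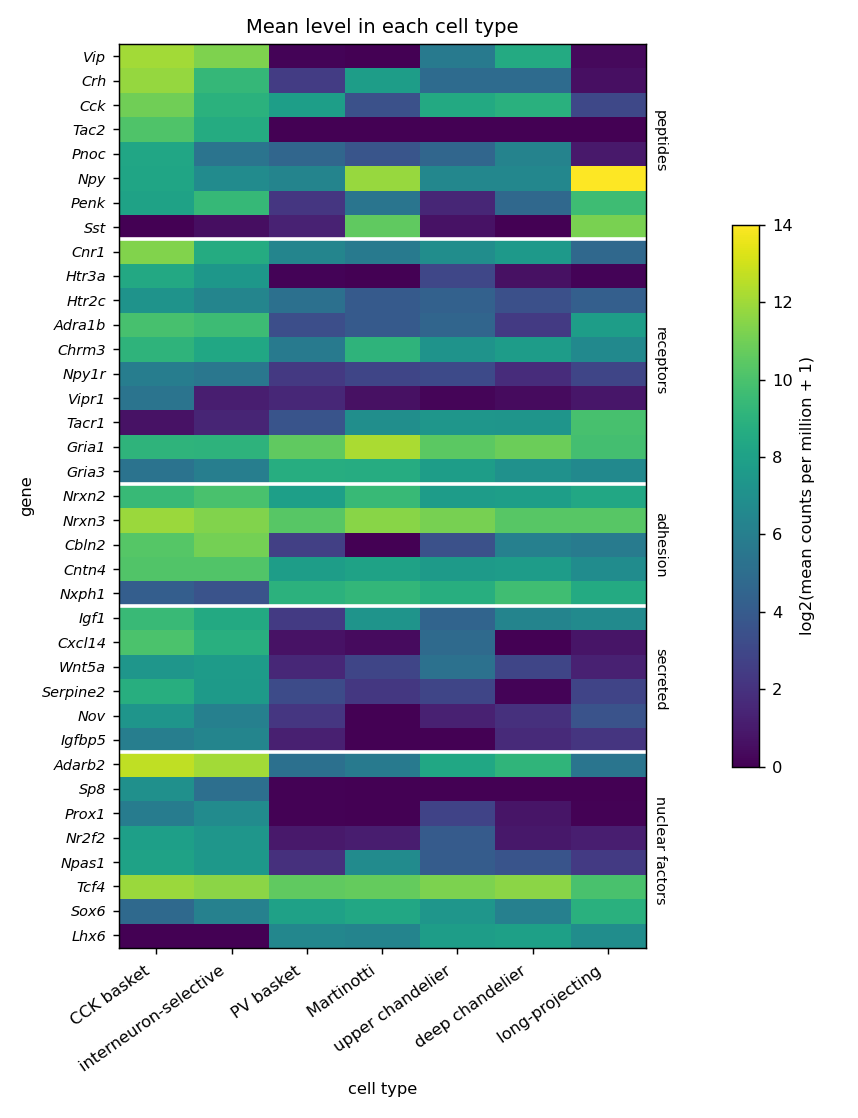
Mean level of 37 genes in the 7 types, as log2 of CPM plus 1, with genes grouped by role and separated by white lines. The columns of CCK basket and interneuron-selective cells share high peptide, adhesion and caudal eminence genes, while Cnr1 averaged 2609 CPM in the first and 391 CPM in the second.

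RGS proteins, which shorten G protein signals, counted 4 higher and 1 lower of 16 tested. None of the 16 passed against interneuron-selective cells, in which the listed genes summed to 1711 CPM, against 1818 CPM in CCK basket cells. Rgs12 had 409, 408, 385 and 522 CPM and a log2 fold change of 5.37 (SE 0.42, edgeR adjusted p = 1.22e-05). Rgs8 had 236, 476, 241 and 528 CPM and a log2 fold change of 3.55 (SE 0.40, edgeR adjusted p = 0.000198). Of 36 cyclic nucleotide enzymes 4 rose and 1 fell, and among the former was the phosphodiesterase gene Pde4b, at 120, 106, 238 and 69.7 CPM (log2 fold change 2.18, SE 0.32, edgeR adjusted p = 0.0013). Among 62 potassium channel genes 12 rose and 2 fell. Kcnip1, an accessory subunit of A-type channels, had 852, 887, 600 and 612 CPM (log2 fold change 1.59, SE 0.21, edgeR adjusted p = 0.000621). Kcnq5, an M-current subunit, had 1266, 628, 881 and 330 CPM (log2 fold change 2.79, SE 0.30, edgeR adjusted p = 0.000126). The sodium-activated channel gene Kcnt2 had 1040, 373, 573 and 396 CPM (log2 fold change 3.84, SE 0.53, edgeR adjusted p = 0.000936). In each of Kcnq5 and Kcnt2, library 1 was highest, and its lowest library still exceeded every mean of the 5 types other than interneuron-selective cells. Neither gene passed against interneuron-selective cells. Of 22 calcium channel genes 4 rose and 1 fell. Of 16 sodium and HCN channel genes 1 rose, which is near the 5.22% of all genes called higher.

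Regulators of the 2 embryonic origins moved in opposite directions. All 9 caudal eminence genes listed were higher, with a median log2 fold change of 3.97. Adarb2, an RNA-binding protein of the adenosine deaminase family, had 7176, 7292, 5653 and 5750 CPM and a log2 fold change of 5.12 (SE 0.32, edgeR adjusted p = 2.59e-06). Npas1 had 171, 301, 340 and 303 CPM and a log2 fold change of 3.97 (SE 0.51, edgeR adjusted p = 0.000561). Sp8 had 115, 62.4, 65.7 and 254 CPM and was near 0 outside CCK basket and interneuron-selective cells (edgeR adjusted p = 0.000114). Of 8 medial eminence genes, 3 were lower and 0 higher, with a median log2 fold change of -3.29. Lhx6, a regulator of medial eminence interneurons, had no count in CCK basket or interneuron-selective cells and averaged 78.2 to 248 CPM in the other types (edgeR adjusted p = 1). This test averages logarithms over types that include interneuron-selective cells, also without a count, so it cannot judge Lhx6. The gene passed in the contrast with PV basket cells below. Sox6 had 20, 40.7, 32.8 and 19.2 CPM and a log2 fold change of -2.64 (SE 0.34, edgeR adjusted p = 0.000599). Tox3, a chromatin protein outside that list, had 0.254, 0.411, 0 and 0 CPM against 43.3 to 320 CPM in the 5 types other than interneuron-selective cells. Over 65 interneuron transcription factors tested, 13 rose and 3 fell. Tcf4 was the most even of the nuclear factors named, at 3873, 3979, 4060 and 3445 CPM (log2 fold change 1.04, SE 0.12, edgeR adjusted p = 0.00023), and the mineralocorticoid receptor gene Nr3c2 had 335, 485, 207 and 548 CPM (log2 fold change 2.74, SE 0.40, edgeR adjusted p = 0.0013).

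The contrast with PV basket cells asks how the 2 classes of perisomatic cell differ. Caudal eminence genes (7 of 9) and growth factor genes (8 of 59) stood higher in CCK basket cells, and 4 of 8 medial eminence genes stood lower. Release and channel genes passed in both directions. In the same edgeR fit, 2.94% of genes passed (270 genes, 1.74%, higher and 187 genes, 1.2%, lower in CCK basket cells), and the median log2 fold change over all genes was -0.00. PV basket cells came from older mice of both sexes and all layers, so these cannot be told apart from type. Of 48 release machinery genes tested, 5 were higher and 5 lower. Complexin 1, Cplx1, had 256, 423, 199 and 628 CPM in CCK basket libraries and 1818 ± 97.6 CPM (SD, n = 2) in PV basket replicates, a log2 fold change of -2.20 (SE 0.24, edgeR adjusted p = 0.000303). Its relative Cplx2 went the other way, at 396, 741, 494 and 704 CPM against 106 CPM (log2 fold change 2.52, SE 0.51, edgeR adjusted p = 0.0168). Synaptotagmin 2, Syt2, the calcium sensor of fast release, had 5.58, 3.7, 6.44 and 3.27 CPM against 65 CPM (log2 fold change -3.65, SE 0.88, edgeR adjusted p = 0.0401). Syt1, the sensor with the broader distribution, had 2397, 2812, 2456 and 2528 CPM against 2062 CPM, a log2 fold change of 0.39 (95% interval -0.06 to 0.84, edgeR adjusted p = 0.404). Syt7, a sensor for slow release, was lower in CCK basket cells, at 35.3, 122, 67 and 34.7 CPM against 372 CPM (log2 fold change -2.55, SE 0.35, edgeR adjusted p = 0.0015). The adjusted p of Cplx2 was 0.221 without PV basket animals 7 and 8 and 0.0657 without CCK basket animal 6. That of Syt2 missed the threshold in 9 of 16 fits that left out 1 replicate, and was highest, 0.348, without PV basket animals 7 and 8.

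Of 22 calcium channel genes 6 were higher and 1 lower in CCK basket cells. The T-type channel gene Cacna1g had 131, 77.2, 42.9 and 100 CPM against 5.1 CPM (log2 fold change 4.26, SE 0.47, edgeR adjusted p = 0.000313). Auxiliary subunits diverged: Cacna2d3 had 480, 506, 307 and 223 CPM against 30.7 CPM (log2 fold change 3.72, SE 0.40, edgeR adjusted p = 0.000303). Cacna2d2 had 0.254, 0, 2.58 and 4.08 CPM against 166 CPM (log2 fold change -6.49, SE 1.00, edgeR adjusted p = 0.00334). For the presynaptic P/Q-type channel gene Cacna1a, no difference passed, with a log2 fold change of -0.52 (95% interval -1.34 to 0.30, edgeR adjusted p = 0.574). Potassium channel genes counted 9 higher and 7 lower of 62. Kcna2 had 24.9, 97.3, 78.1 and 90.3 CPM against 628 CPM (log2 fold change -3.09, SE 0.46, edgeR adjusted p = 0.00268). Kcnc2, a fast Kv3 channel gene, had 237, 268, 258 and 177 CPM against 1341 CPM (log2 fold change -2.43, SE 0.47, edgeR adjusted p = 0.013, and 0.0706 to 0.0962 without either CCK basket animal or either PV basket replicate). Its relative Kcnc1 did not pass, at 242, 323, 337 and 191 CPM against 464 CPM (log2 fold change -0.70, 95% interval -1.37 to -0.02, edgeR adjusted p = 0.301). Among receptors the muscarinic Chrm3 was higher (log2 fold change 3.45, SE 0.45, edgeR adjusted p = 0.00112) and Gria3 lower (log2 fold change -3.36, SE 0.45, edgeR adjusted p = 0.00137).

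Several genes were at or near 0 in 1 of the 2 basket types. Lhx6 and the neurofilament gene Nefm had no count in CCK basket cells, and PV basket cells were at least 330-fold and 281-fold higher against the floor of 3 counts over the CCK basket cells (edgeR adjusted p = 4.79e-05 and 0.0056). Pvalb itself had 5.07, 0, 0.859 and 0 CPM against 1023 CPM (edgeR adjusted p = 0.00425), which checks the PV label. The other way, Tac2 had no count in PV basket cells and was at least 7713-fold higher in CCK basket cells against the floor of 3 counts over the PV basket cells (edgeR adjusted p = 0.000632). Igf1 had a log2 fold change of 7.51 (SE 0.82, edgeR adjusted p = 0.000313) and Kit one of 7.66 (SE 0.68, edgeR adjusted p = 7.28e-05). Among the 6 CCK basket markers, Vip, which drove the labelling, Crh, Cxcl14 and Htr3a passed. Cck and Cnr1 did not, although both CCK basket animals lay above both PV basket replicates for each. Cnr1 averaged 2609 ± 226 CPM (SD, n = 2) against 82.3 ± 3.84 CPM (SD, n = 2), a log2 fold change of 5.09 with a 95% interval of 2.06 to 8.12 (edgeR adjusted p = 0.0732). DESeq2 called both, with an adjusted p of 0.000439 for Cnr1 and 0.0171 for Cck. The 4 markers that passed did so only with both PV basket replicates in the fit: without animals 7 and 8, the adjusted p of Crh was 0.12, of Cxcl14 0.152, of Htr3a 0.11 and of Vip 0.336.

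**Figure D3:**
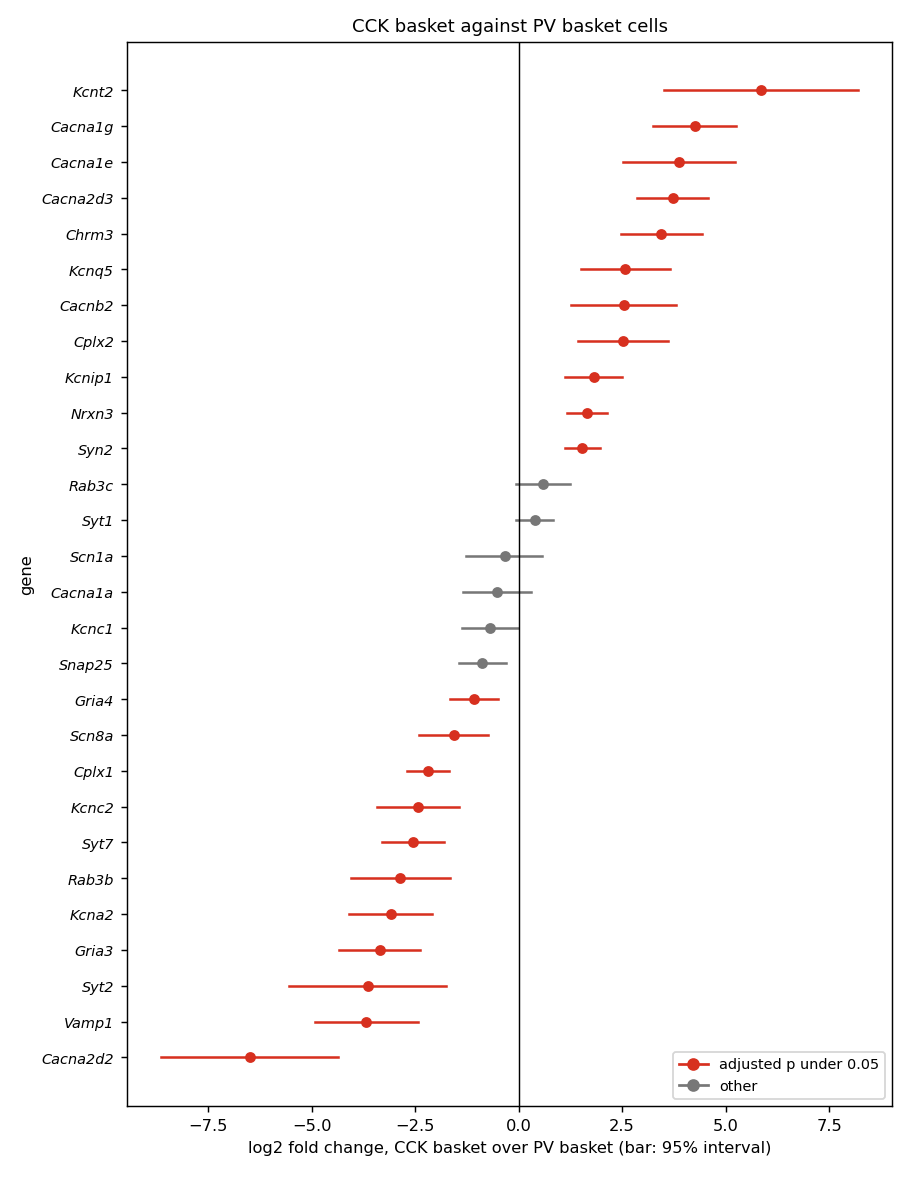
Log2 fold changes of 28 genes between CCK basket and PV basket cells with 95% intervals from the edgeR fit, red where the adjusted p is under 0.05. Kcnt2 lies at the top with 5.85 (adjusted p 0.121 without PV basket animals 7 and 8 and 0.169 without 9 and 10) and Cacna2d2 at the bottom with -6.49.

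Interneuron-selective cells are the other type labelled through Vip, from layers labelled 2/3. In this contrast 1.35% of genes passed (158 genes, 1.02%, higher and 51 genes, 0.328%, lower in CCK basket cells), around a median log2 fold change of 0.07. None of the 6 markers, 9 caudal eminence genes and 53 adhesion genes passed in either direction. Marker levels were nevertheless higher in CCK basket cells throughout. Cnr1 averaged 2609 ± 226 CPM (SD, n = 2) against 391 ± 238 CPM (SD, n = 2), a 6.67-fold ratio, and its log2 fold change of 3.02 had a 95% interval of 0.27 to 5.78 (unadjusted p = 0.0337, edgeR adjusted p = 0.232). Crh averaged 3529 ± 567 CPM (SD, n = 2) against 641 ± 593 CPM (SD, n = 2), a log2 fold change of 2.76 with a 95% interval of -0.17 to 5.68 (edgeR adjusted p = 0.3). Cck had a log2 fold change of 2.28 with a 95% interval of 0.21 to 4.35 (edgeR adjusted p = 0.23). The lowest CCK basket library lay above the highest interneuron-selective library for Crh, Cck and Cnr1, so the groups did not overlap, and the fit still gave wide intervals. For Vip, shared by both labels, the log2 fold change was 1.03 with a 95% interval of -2.88 to 4.95 (edgeR adjusted p = 0.804). DESeq2 did not change these 4 calls, with an adjusted p of 0.0848 for Cnr1, 0.503 for Crh, 0.142 for Cck and 0.93 for Vip.

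Among genes of the lists, 2 of 36 cyclic nucleotide enzymes, 3 of 48 release genes and 3 of 62 potassium channel genes were higher than in interneuron-selective cells. Pde1a, a calcium-stimulated phosphodiesterase, had 27.8, 137, 46.1 and 62.8 CPM against 7.37 CPM in interneuron-selective cells (log2 fold change 3.33, SE 0.46, edgeR adjusted p = 0.00766). Prkacb, a catalytic subunit of protein kinase A, had 246, 125, 325 and 163 CPM against 60.5 CPM (log2 fold change 2.12, SE 0.28, edgeR adjusted p = 0.00615). Both passed in all 16 fits that left out 1 replicate, and neither passed in a fit on the 2 types alone (edgeR adjusted p = 0.362 for each). Kcnip1 had a log2 fold change of 1.65 (SE 0.32, edgeR adjusted p = 0.028), at 281 CPM in the other type. Another 7 list genes were higher by log2 fold changes of 0.92 to 1.67, namely Scg2, Gabrg3, Syt1, Syn2, Cacnb4, Kcnd2 and Dpp6. Dlx1 and the immediate early gene Dusp1 were also higher, while Sox2 and Sema6d were lower. Kcnip1 missed the threshold in 8 of 16 such fits, Gabrg3 and Sema6d in 11, Sox2 in 10, Cacnb4 in 4 and Dusp1 in 3. Syn2, Syt1, Kcnd2, Dpp6, Scg2 and Dlx1 missed it in 12 of 16 each. Calretinin, Calb2, which drove the other label, was lower in level, at 11.7, 2.46, 137 and 134 CPM against 438 CPM, without passing (edgeR adjusted p = 0.224).

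Other genes that differed from interneuron-selective cells were outside these lists or followed sex. Xist, the RNA that silences the inactive X chromosome in females, had 0, 0.821, 0.859 and 0.408 CPM against 551 CPM, and its antisense partner Tsix had 16, 23.8, 18 and 9.8 CPM against 577 CPM. Y-linked Ddx3y had 109, 302, 295 and 134 CPM against 21.5 CPM. Xist and Tsix overlap on opposite strands, and no source used here says whether counting used the strand, so their reads may not be separable. The 3 genes follow the labelled sexes, male and female, which cannot be told apart from type here. A second group was high in CCK basket and PV basket cells alike. Cdk8 had 1194, 788, 1132 and 794 CPM against 82.6 CPM in interneuron-selective and 1055 CPM in PV basket cells (edgeR adjusted p = 0.0097 and 0.998). Camk1d had 2951, 992, 1410 and 1644 CPM against 170 and 2197 CPM (edgeR adjusted p = 0.00984 and 0.946). Lars2, a mitochondrial leucyl-tRNA synthetase, had 969, 239, 375 and 173 CPM against 37.3 and 1024 CPM (edgeR adjusted p = 0.0496, and above the threshold in 12 of 16 fits that left out 1 replicate). The ribosomal RNA precursor Rn45s moved with them, at 0.796% to 1.59% of counts in CCK basket libraries and 0.0456% to 0.149% in interneuron-selective libraries. In PV basket libraries it was 0.0964% to 2.89%, with 4 of 16 between 0.0964% and 0.165%, and its part in these differences was not tested. Igbp1, a regulator of protein phosphatase 2A, had 183, 227, 180 and 67.8 CPM against 4.15 CPM (log2 fold change 5.46, SE 0.58, edgeR adjusted p = 0.000747), and Arpc3, an Arp2/3 complex subunit, had 214, 257, 296 and 62.9 CPM against 7.27 CPM (log2 fold change 4.94, SE 0.81, edgeR adjusted p = 0.0125). The oligodendrocyte list summed to 40.1 CPM in CCK basket and 935 CPM in interneuron-selective cells, and its part in the lower genes was not tested.

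**Figure D4:**
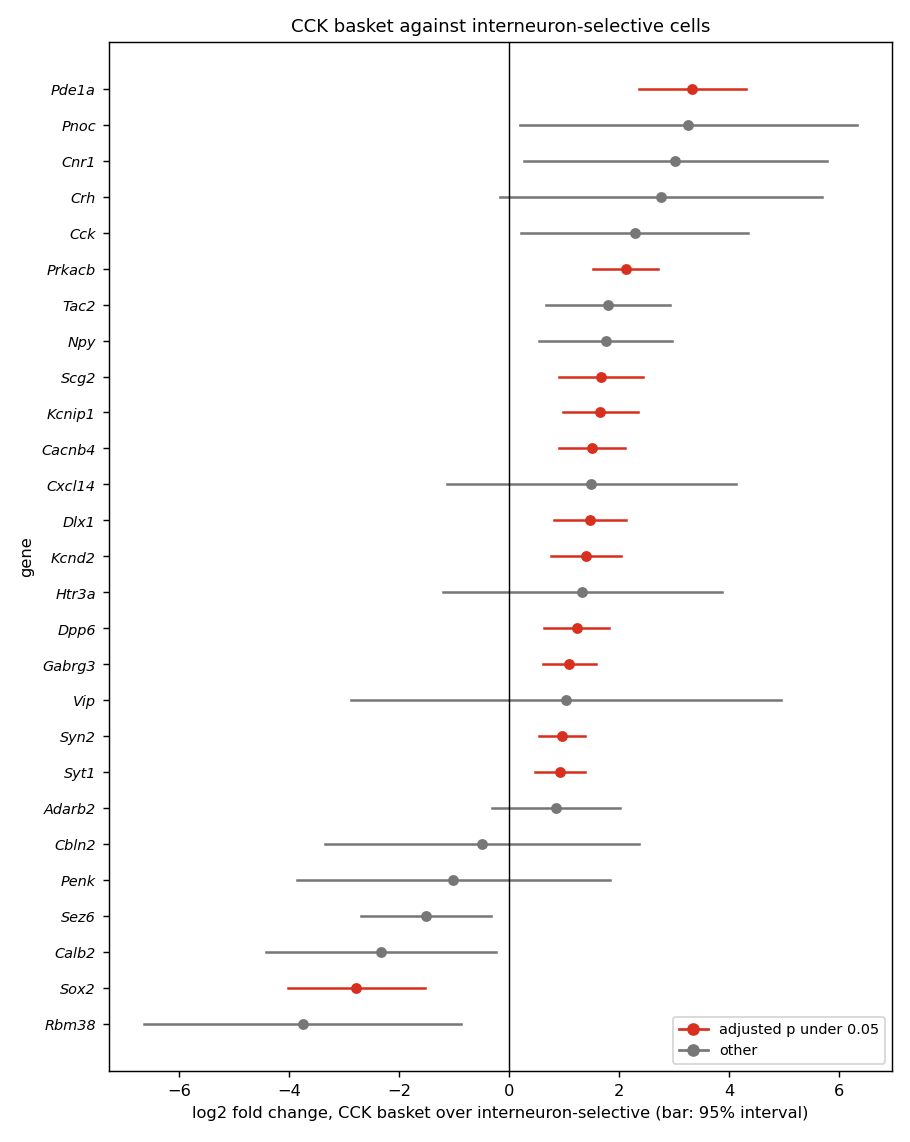
Log2 fold changes of 27 genes between CCK basket and interneuron-selective cells with 95% intervals from the edgeR fit, red where the adjusted p is under 0.05. The interval of Vip is -2.88 to 4.95, and that of Pde1a is 2.35 to 4.31.

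Between the 2 CCK basket animals, no gene of 11296 tested passed in edgeR (0%), with 644 at an unadjusted p under 0.05, whereas DESeq2 called 209. The 4 libraries correlated with each other at a median r of 0.688 (0.673 to 0.706, 6 pairs, across genes on the log2(CPM + 1) scale), against medians of 0.556 with deep chandelier to 0.630 with long-projecting libraries. The median with interneuron-selective libraries, the type with the fewest counts, was 0.609. These correlations are descriptions over genes that share library depth. In the count comparison above, the 2 pairs from the same animal (66.5 and 67.4 times sampling) lay inside the range of the 4 pairs from different animals (62 to 82.5). Few genes with a mean of at least 50 CPM were missing from a library: of 4594 such genes, 10 had no count in at least 1 library, which is 0.218%, and 28 were under 1 CPM in 1 or more. In other types with 4 libraries the share with no count was 0.976% in Martinotti, 1.97% in interneuron-selective and 6% in deep chandelier cells, which had other depths. It was 0.0221% in PV basket cells over 16 libraries and 0.071% in long-projecting cells over 9. The uneven genes named here were chosen after their values were seen. Calretinin, Calb2, was split by animal at 11.7, 2.46, 137 and 134 CPM, which makes its call against the other types (edgeR adjusted p = 0.0198) depend on animal 6, since without that animal the adjusted p was 1. The calcium-binding protein gene Rcn1 had 115, 0, 0.429 and 233 CPM. Sox3 was found almost only in library 3, at 0, 0.411, 341 and 2.45 CPM. The activity-regulated genes Fos and Fosl2 were lowest in library 2: Fos had 86.2, 3.29, 280 and 422 CPM and Fosl2 had 33, 3.7, 419 and 330 CPM. Jun was lower than in the other types, at 0, 0, 8.59 and 0 CPM against 29.4 to 105 CPM (edgeR adjusted p = 0.0273, and 0.118 without animal 5).

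**Figure D5:**
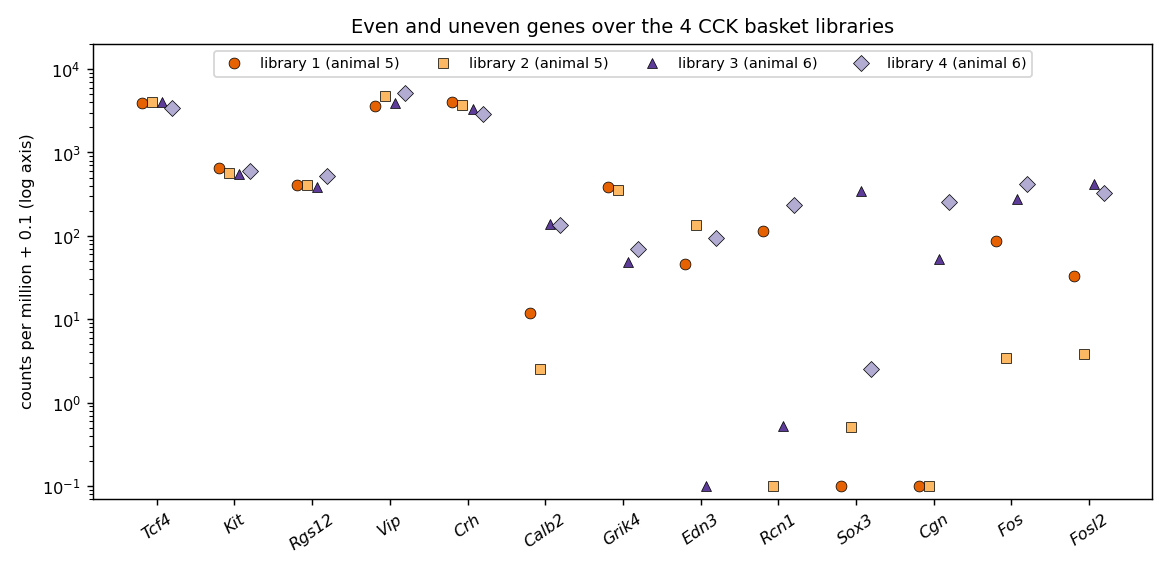
Levels of 13 genes in each of the 4 CCK basket libraries, as CPM plus 0.1 on a log axis, with warm colours for animal 5 and purple for animal 6. Tcf4, Kit and Rgs12 lie close together, Calb2 and Grik4 split by animal, and Rcn1 differs between libraries of 1 animal.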

How the data were processed

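Single red-fluorescent neurons were isolated by trituration of dissected slices, amplified linearly in 2 rounds and tagged with a cell barcode and a random tag, per the labels' protocols. Bowtie 0.12.7 and the mm9 build are named, per the submitters' processing notes, with no role given; the counter, the gene model and whether tags were collapsed are not given in the sources used here. The authors deposited 1 table of estimated counts for 23335 genes and 584 cells, unscaled, of which 4.07% of the values above 0 are not whole (tolerance 1e-06). Cells were summed by library and then by animal, and sums were rounded to whole numbers. PV basket animals 7 and 8, and 9 and 10, were merged, since 8 pairs of their libraries differed by less than 2 times sampling noise, which left 16 replicates of 7 types. edgeR 4.0.16 (limma 3.58.1, R 4.3.3) was fitted to all 7 types with TMM scaling, its filter on low counts and robust quasi-likelihood tests, and p-values were adjusted by Benjamini-Hochberg over 15533 genes. The biological coefficient of variation was 61.7%. Log2 fold changes have standard errors and 95% intervals from this fit, and CPM are counts per 1000000 of the sum's total, without TMM. The fits were tested on simulated data. Floors are 3 counts over a type and cover counting error only. Alternatives were DESeq2 1.42.0, RLE scaling, no filter, other replicates or types, and leaving out each replicate. Python 3.11.15 did the rest. Named genes are markers, members of the gene lists that passed a comparison or reached 100 CPM, and the largest changes with groups that did not overlap, at 50 CPM or more. The cells, gene lists and tests were chosen with earlier results of these data known. Promoter sequences are from RefSeq (GRCm38.p6), a build other than that of the counts, and no count was joined to them by position. Some genes that passed are not reported here.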

Additional observations from a re-analysis of the deposited data

Results flagged for a closer look

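For 11 of 117 genes tested, 1 of the 4 CCK basket libraries stood apart from the other 3, by a gap that took most of the range of the 4 (Dixon's test). Chance marks about 1 in 20 in this test, and since some of these genes were named for their uneven values, their number is not to be read against that share. Library 3 was the high one for Slc1a2 (475 CPM), Sox3 (341 CPM), Chrna3 (73.8 CPM) and Htr2b (22.3 CPM). Library 4 was the high one for Penk (494 CPM) and Adra2a (77.6 CPM). Library 2 was the high one for Npy (445 CPM) and Adra2c (33.7 CPM), and library 1 for Wnt5a (221 CPM), Chat (19 CPM) and Slc18a3 (18.8 CPM).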

How the results depend on the processing

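Most types had 2 replicates, and the counts of genes past the threshold moved with the method. Against the other 6 types 979 genes passed, and 1513 with 18 labelled animals as replicates, 1625 with DESeq2, 1793 with libraries as samples and 571 against upper-layer types only. Leaving out 1 replicate gave 535 to 1568. Against interneuron-selective cells 209 passed, and 730, 1448 and 1197 under the first 3 of these, 1 in a fit on the 2 types alone, and 62 to 704 with 1 replicate left out. Against PV basket cells 457 passed, and 1477, 1281 and 2525 under the same 3, 250 in a fit on the 2 types alone, and 68 to 789 with 1 replicate left out. Between the 2 animals 0 passed, also with any 1 library left out (0 to 0), and 209 with DESeq2. With the library number as a replicate block the counts were 1037, 466 and 1193. Deviations of libraries with the same number in CCK basket and other types correlated between -0.03 and 0.02, so the numbers did not pair samples. Of the genes named, none reversed in the contrasts with 1 other type. Of 84 genes named that passed against the other 6 types, 26 missed the threshold against upper-layer types only and 15 against male types only, beside 3 that reversed there. Of 22 fitted on the 2 types alone, 21 missed it against interneuron-selective cells, and 13 of 62 against PV basket cells. Against the other 6 types, the log2 fold change with 1 replicate left out was -0.27 to 3.79 for Calb2 and -0.29 to 9.59 for Sox3, each lowest without CCK basket animal 6. Against male types only it was -0.99 for Ddx3y, -0.01 for Syn2 and 1.58 for Tsix. The cause was not tested. A gene with no count in CCK basket cells may be present at up to 0.269 CPM.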

Other observations

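Genes of acetylcholine handling were present at low and uneven levels in CCK basket cells. The choline acetyltransferase gene Chat had 19, 1.23, 2.58 and 2.45 CPM in libraries 1 to 4, and the vesicular acetylcholine transporter gene Slc18a3, which lies within Chat, had 18.8, 0.411, 2.15 and 1.63 CPM. Library 1 was the high one for both, and both were higher on average in interneuron-selective cells, at 30.1 and 22.9 CPM. The choline transporter gene Slc5a7 was high in other libraries, at 2.28, 17.7, 24.5 and 0 CPM. All 3 passed against the other 6 types (edgeR adjusted p = 0.0236 for Chat, 0.0369 for Slc18a3 and 0.00223 for Slc5a7), the only ones of 16 tested genes of GABA synthesis, transport and cotransmitters to do so. Of 16 fits that each left out 1 replicate, Chat missed the threshold in 2 and Slc18a3 in 6, and the adjusted p was highest without CCK basket animal 5, at 0.459 and 0.252.

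The calmodulin-binding peptide gene Pcp4 had 249, 503, 234 and 486 CPM and passed in all 16 such fits (edgeR adjusted p = 0.0013), although its mean in long-projecting cells was 1157 CPM. Igfbp5, which binds insulin-like growth factors, had 47.7, 85.4, 73 and 49.4 CPM and passed in all 16 as well (edgeR adjusted p = 0.000909). Its mean in interneuron-selective cells was 81 CPM.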
